A study of Mus musculus with 10 samples.

Results

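Acpp, Clic5, Upp1, Hmcn2, Entpd1 and Ccr1 are 6 of the 55486 genes measured in mouse mammary normal fibroblasts (NFs) that were cultured with or without tumor cells. They were chosen by measured values: each had far more reads in NFs taken from gels with tumor cells than in NFs taken from a gel without them, and Entpd1 and Ccr1 were also known from an earlier look at the difference between NF subsets in these libraries. The rise of these genes in co-cultured NFs is therefore what selected them and is described here without a test. The rise was to be judged against the tumor libraries of the same gels, so the levels there and the share of tumor cell RNA are described as well. The choice was not made on how the NF subsets differed in Acpp, Clic5, Upp1 and Hmcn2. Tests of that difference and of the change in tumor cells were set with earlier results of these data known.

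The 10 bulk RNA sequencing libraries came from 5 collagen and basement membrane extract gels cultured for 7 days. NFs came from mTmG mice aged 8 weeks, pooled before the sort, whose cells carry a red reporter that Cre recombinase turns green. By the surface protein that Dpp4 encodes, CD26, they had been split into a negative (CD26−) and a positive (CD26+) subset. CD26+ NFs, and not CD26− NFs, had received Cre by adenovirus, so virus and subset cannot be told apart, and a CD26+ cell that stayed red would have been sorted with CD26− NFs. Both subsets shared gel 1 alone, gel 4 with tumor line 13-MCB-17 and gel 5 with tumor line 10-SJK-221, while the 2 lines were alone in gels 2 and 3, and red, green and colorless cells were then sorted. The tumor lines derived from mice that model invasive lobular carcinoma with WapCre and Cdh1F/F, in which Cre under the milk protein promoter Wap removes E-cadherin from mammary epithelium. Each co-cultured group thus had 2 libraries, 1 per line, so that gel and line cannot be told apart, and each NF subset alone had 1.

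The 6 genes work at different places of the cell. Acpp (prostatic acid phosphatase) and Entpd1 (CD39) encode enzymes that act outside the cell on nucleotides: Entpd1 takes phosphates off ATP and ADP, and Acpp can turn AMP into adenosine. Upp1 encodes uridine phosphorylase, which splits uridine into uracil and a sugar phosphate inside the cell. Clic5 belongs to the chloride intracellular channel family and is found with ezrin at the actin-rich cell cortex. Hmcn2 encodes a hemicentin, a very large secreted protein of the extracellular matrix. Ccr1 encodes a chemokine receptor best known from myeloid cells, and Entpd1 is likewise known from leukocytes and endothelium.

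Libraries held 14142334 to 18408940 counts, and values are given as CPM, that is counts scaled to the library total. The limit that a count of 0 allows was set at 3 counts, or 0.163 to 0.212 CPM depending on the library. This limit and the intervals on ratios of single libraries cover counting error only. A fold given as at least a value sets the CPM of the other library against this limit and leaves out that library's own counting error. Its lower 95% counting bound is therefore lower, for example 31.7 in place of 39.5 for Clic5 in CD26− NFs of gel 5. The labels fit their markers in part. Epcam, the epithelial surface marker, was at 0 in NFs alone and at 335 to 432 CPM in tumor cells, Col1a1 was at 7882 to 18556 CPM in NFs, and Dpp4 was low, at no more than 0.771 CPM in any library, though higher in CD26+ than in CD26− NFs of each gel (0.281 against 0 CPM in gel 1, 0.771 against 0 in gel 4 and 0.283 against 0.0575 in gel 5). The Dpp4 values rest on few reads, since 1 count was 0.0575 to 0.0707 CPM in the NF libraries, and their difference was not tested. Because these are bulk samples, fewer cells of a type and less RNA per cell cannot be told apart.

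In GRCm38 coordinates Acpp (ENSMUSG00000032561) spans 9:104288251-104337748 on the minus strand and Ccr1 (ENSMUSG00000025804) 9:123962124-123968692 on the minus strand. Clic5 (ENSMUSG00000023959) spans 17:44134768-44280172, Upp1 (ENSMUSG00000020407) 11:9118103-9136170, Hmcn2 (ENSMUSG00000055632) 2:31314415-31460738 and Entpd1 (ENSMUSG00000048120) 19:40612366-40741602, all on the plus strand. No exon base of any of them overlapped an exon of another annotated gene. Of their 54-base exon stretches, 0.696% in Acpp and 0.011% in Clic5 also occurred in another gene, and 0 in the other 4, so reads were rarely ambiguous. Summed exon length ran from 1961 bases in Upp1 through 2833 in Ccr1, 5580 in Entpd1, 7330 in Acpp and 8782 in Clic5 to 16073 bases in Hmcn2, whose exons formed 99 separate blocks.

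Because the 6 genes rose together, the 250 bases before their most upstream RefSeq start (build GRCm38.p6) were searched on both strands for 5 short motifs, of which TGANTCA (the AP-1 site) was the one found in more than 1 gene at these starts. It occurred before Upp1 and Hmcn2, 2 of 6 genes, against 6.75% of all 32851 promoter windows. The RUNX letters TGTGGT occurred before Ccr1 (14.05% of all windows) and the TEAD letters GGAATG before Upp1 (12.6%). The E-box CACGTG (6.02% of windows) and the TATA box TATAAA (12.4%) were found before none of the 6, and no letters of the 5 motifs were found before Acpp, Clic5 or Entpd1. For Clic5 the window was 17:44188322-44188571, which lies inside the gene span given above, so the bases before 17:44134768 were not searched. The 3 windows with a match are shown 5′ to 3′ on the gene's strand with the matches in capitals, which did not overlap each other; a match is a description of the letters and not a bound site.
Upp1, 11:9117758-9118007, plus strand: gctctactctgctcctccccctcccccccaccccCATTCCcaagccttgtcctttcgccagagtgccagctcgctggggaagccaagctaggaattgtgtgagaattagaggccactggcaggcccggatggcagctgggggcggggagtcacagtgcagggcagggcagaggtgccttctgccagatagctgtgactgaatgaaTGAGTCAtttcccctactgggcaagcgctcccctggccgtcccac
Hmcn2, 2:31314082-31314331, plus strand: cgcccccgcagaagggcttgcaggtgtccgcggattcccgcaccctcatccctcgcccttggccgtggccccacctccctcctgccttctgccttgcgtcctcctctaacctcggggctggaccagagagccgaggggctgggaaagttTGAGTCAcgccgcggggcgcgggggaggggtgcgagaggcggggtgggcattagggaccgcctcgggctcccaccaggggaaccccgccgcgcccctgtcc
Ccr1, 9:123968693-123968942, minus strand: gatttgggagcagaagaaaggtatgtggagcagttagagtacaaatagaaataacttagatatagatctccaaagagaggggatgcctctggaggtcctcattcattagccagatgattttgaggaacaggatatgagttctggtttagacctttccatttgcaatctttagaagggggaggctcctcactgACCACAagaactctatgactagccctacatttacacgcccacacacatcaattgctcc
In Upp1 and Hmcn2 the AP-1 letters were the same TGAGTCA, beginning 45 and 101 bases before the start. Upp1 has 3 annotated starts, and the window of the second one, which overlaps the first, held the same match, while that of the third held 2 matches to the TEAD letters, 182 and 84 bases before the start, and the RUNX letters 64 bases before it.

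All 6 genes were higher in each of the 4 co-cultured NF libraries than in the NF library of the same subset alone. They differed in how far the label "switched on" fits them. Clic5 and Upp1 were at 0 or 1 count in both NF libraries alone and Acpp at 4 and 5 counts, whereas Hmcn2 was detected in both subsets alone, and Entpd1 and Ccr1 were detected alone in CD26− NFs and at 0 counts in CD26+ NFs. In co-culture every library held at least 88 counts of each gene.

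Acpp was at 0.310 CPM in CD26− and 0.281 CPM in CD26+ NFs alone. In co-culture it stood at 138 CPM (gel 4) and 112 CPM (gel 5) in CD26− NFs and at 89.5 and 76.6 CPM in CD26+ NFs. The co-cultured libraries lay far above both libraries alone, and those of CD26− NFs above those of CD26+ NFs. From these counts Acpp rose 445-fold (95% counting interval 190 to 1372) in CD26− NFs of gel 4 and 273-fold (106 to 1003) in CD26+ NFs of gel 5, the highest and lowest of the 4 ratios. The fold is imprecise because so few reads lay under it alone, and the order of the ratios is within their intervals.

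Entpd1 followed the opposite order of subsets. CD26− NFs went from 18 counts alone (1.12 CPM) to 15.6 and 12.3 CPM in gels 4 and 5, which is 13.99-fold (8.67 to 24.0) and 11.02-fold (6.81 to 18.9). CD26+ NFs went from 0 counts to 28.1 and 26.8 CPM, at least 133-fold and 127-fold above the 3 counts that a count of 0 allows. The 2 gels thus gave close values within a subset, with group levels of 13.97 ± 2.35 CPM (SD, n = 2) in CD26− and 27.4 ± 0.900 CPM (SD, n = 2) in CD26+ NFs.

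Upp1 had 0 counts in CD26− NFs alone and 1 count in CD26+ NFs alone. In co-culture it stood at 54.8 and 33.6 CPM in CD26− NFs and at 50.7 CPM (gel 4) and 55.9 CPM (gel 5) in CD26+ NFs. That is at least 294-fold and 180-fold above the limit in CD26− NFs, and in CD26+ NFs, against the single read, ratios of 723 (129 to 28594) and 796 (142 to 31475). The subsets overlapped, and CD26− NFs of gel 5 were the low library.

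Clic5 had 0 counts in both NF libraries alone and in both tumor libraries alone. Co-cultured CD26− NFs held 20.4 CPM in gel 4 and 7.37 CPM in gel 5, and co-cultured CD26+ NFs held 45.5 and 28.0 CPM. The rise was at least 109-fold and 39.5-fold in CD26− NFs and at least 216-fold and 133-fold in CD26+ NFs. Clic5 was the member with the largest gap between gels in both subsets: gel 5, with tumor line 10-SJK-221, stood at 0.362 times (0.293 to 0.445) the level of gel 4 in CD26− NFs and at 0.616 times (0.543 to 0.697) in CD26+ NFs.

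Hmcn2 started from 12 counts (0.745 CPM) in CD26− and 32 counts (2.25 CPM) in CD26+ NFs alone. In co-culture it stood at 14.5 and 13.4 CPM in CD26− NFs and at 30.7 and 26.3 CPM in CD26+ NFs. The rise was 19.4-fold (10.9 to 38.1) and 18.0-fold (10.1 to 35.3) in CD26− NFs and 13.7-fold (9.55 to 20.2) and 11.7-fold (8.15 to 17.4) in CD26+ NFs. CD26+ NFs were higher both alone and in co-culture.

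Ccr1 was the lowest of the 6 in CPM. CD26− NFs went from 12 counts (0.745 CPM) to 5.51 and 5.06 CPM, 7.40-fold (4.04 to 14.8) and 6.80-fold (3.70 to 13.7). CD26+ NFs went from 0 counts to 12.1 and 14.3 CPM, at least 57.7-fold and 67.8-fold above the limit. As for Entpd1, the subset that had no reads alone ended as the higher one.

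**Figure D1:**
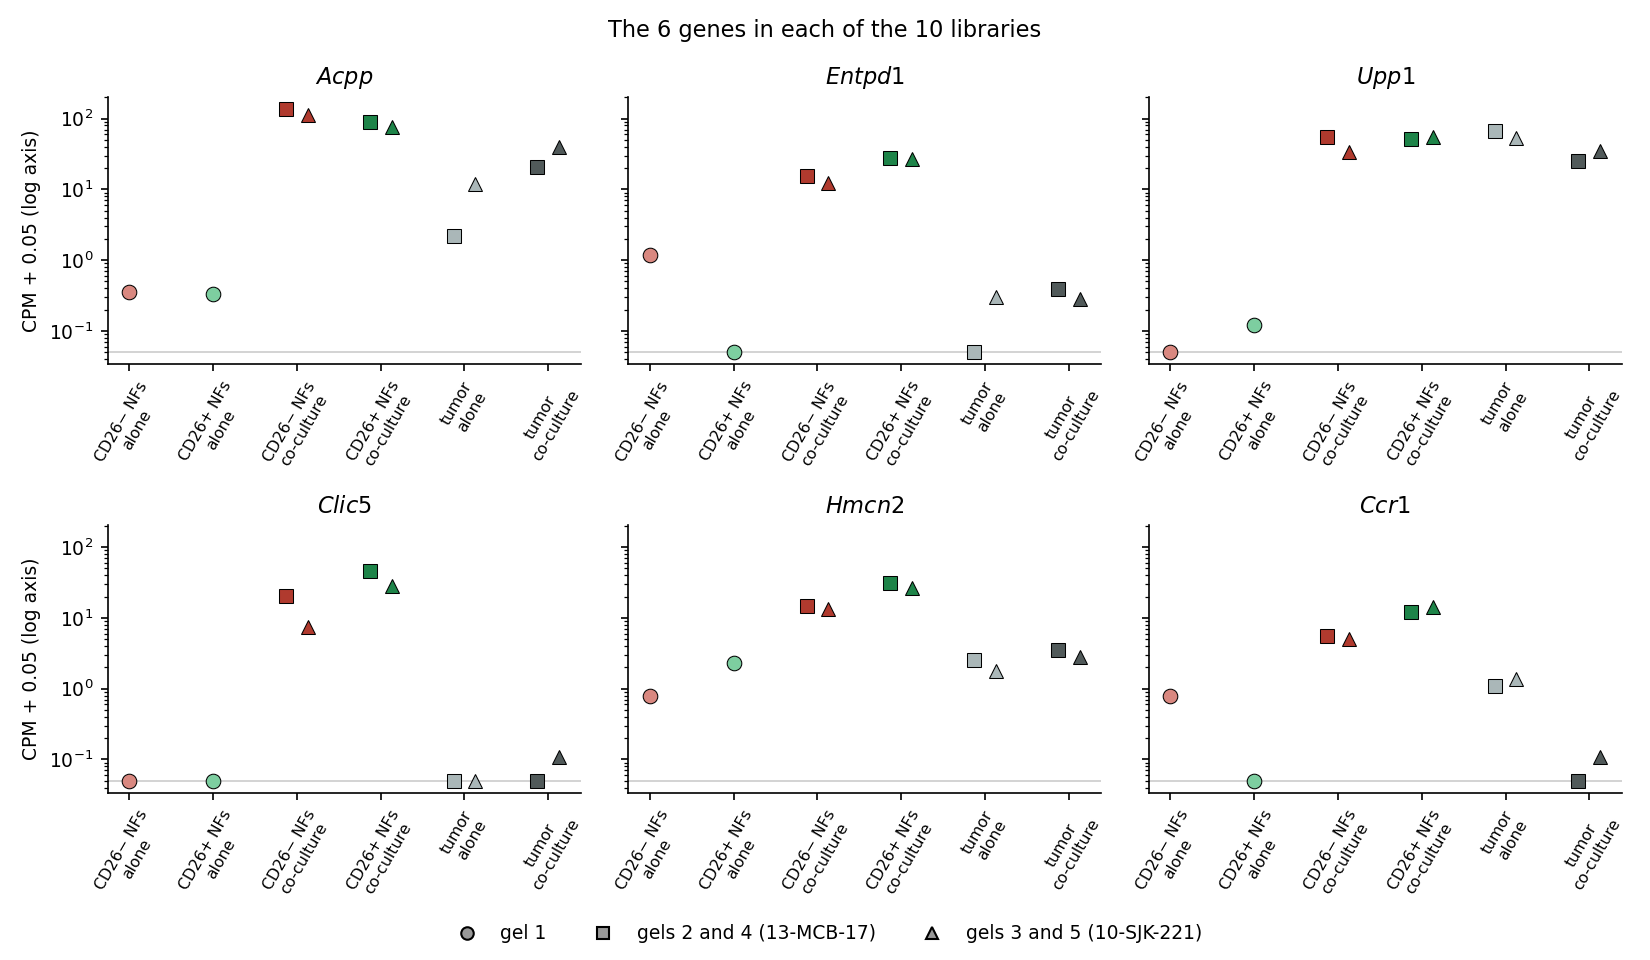
Each panel plots 1 gene in the 10 libraries as CPM + 0.05 on a log axis, with the NF and tumor groups along the x axis and the marker shape giving the gel and tumor line. The grey line marks 0 counts. All 4 co-cultured NF points lie above the NF points alone in every panel, Upp1 reaches its highest value, 67.5 CPM, in a tumor library without NFs, and Clic5 stays at 0 or 1 count in the 4 tumor libraries.

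Levels can be set side by side between genes only per length. As CPM per kilobase of exon over the 4 co-cultured NF libraries, Upp1 had the highest median (26.9, range 17.1 to 28.5), before Acpp (13.7, range 10.4 to 18.9), Entpd1 (3.80, range 2.21 to 5.03), Ccr1 (3.12, range 1.79 to 5.04), Clic5 (2.75, range 0.839 to 5.18) and Hmcn2 (1.27, range 0.834 to 1.91). The ranges of Upp1 and Acpp overlapped, as did those of Entpd1, Ccr1 and Clic5 with each other and those of Ccr1, Clic5 and Hmcn2. Only between Acpp and Entpd1 was there a gap between neighbors. In plain CPM, by contrast, Acpp came first and Ccr1 last.

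Co-cultured NF libraries held some tumor cell RNA, so the rise was set against the tumor library of the same gel. Over 12 epithelial markers (keratins, claudins, Epcam and others), summed at 0.869 and 1.12 CPM in NFs alone, 123 to 332 CPM in co-cultured NFs and 4590 to 5334 CPM in their tumor partners, the median ratio of NF to tumor library was 1.97% and 2.09% in CD26− NFs of gels 4 and 5 and 3.10% and 5.03% in CD26+ NFs. Multiplied by the tumor level of a gene, this share gives the CPM that carried-over tumor RNA would supply. For all 6 genes the CPM seen was far above it.

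For Acpp, tumor cells of gels 4 and 5 held 20.4 and 40.2 CPM, and carried-over RNA would supply CD26− NFs with 0.401 and 0.842 CPM and CD26+ NFs with 0.632 and 2.02 CPM, or 0.290% to 2.64% of what was seen. For Upp1, with 25.5 and 34.8 CPM in these tumor cells, the shares were 0.915% to 3.13%. These were the largest of the 6 genes, and taking the epithelial marker with the highest ratio, Krt19, in place of the median raised the top of each range to 9.31% for Acpp and 11.04% for Upp1. For Hmcn2 (3.51 and 2.74 CPM in tumor cells) the median share gave 0.354% to 0.524% of what was seen.

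Clic5, Entpd1 and Ccr1 were almost missing from tumor cells of the same gels. Clic5 and Ccr1 had 0 counts in gel 4 and 1 count in gel 5, and Entpd1 had 6 and 4 counts (0.339 and 0.228 CPM). With 3 counts taken in place of 0 or 1, the median share of tumor RNA would supply up to 0.0428% of the Entpd1 seen, 0.0707% of the Ccr1 and 0.0486% of the Clic5, and the share from Krt19 up to 0.212%, 0.310% and 0.213%. Entpd1 was 46.1 to 117 times as high in an NF library as in the tumor library of its gel. Acpp was 1.90 to 6.79 times and Hmcn2 4.13 to 9.61 times as high, whereas Upp1 lay between 0.964 and 2.15 times the tumor level.

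**Figure D2:**
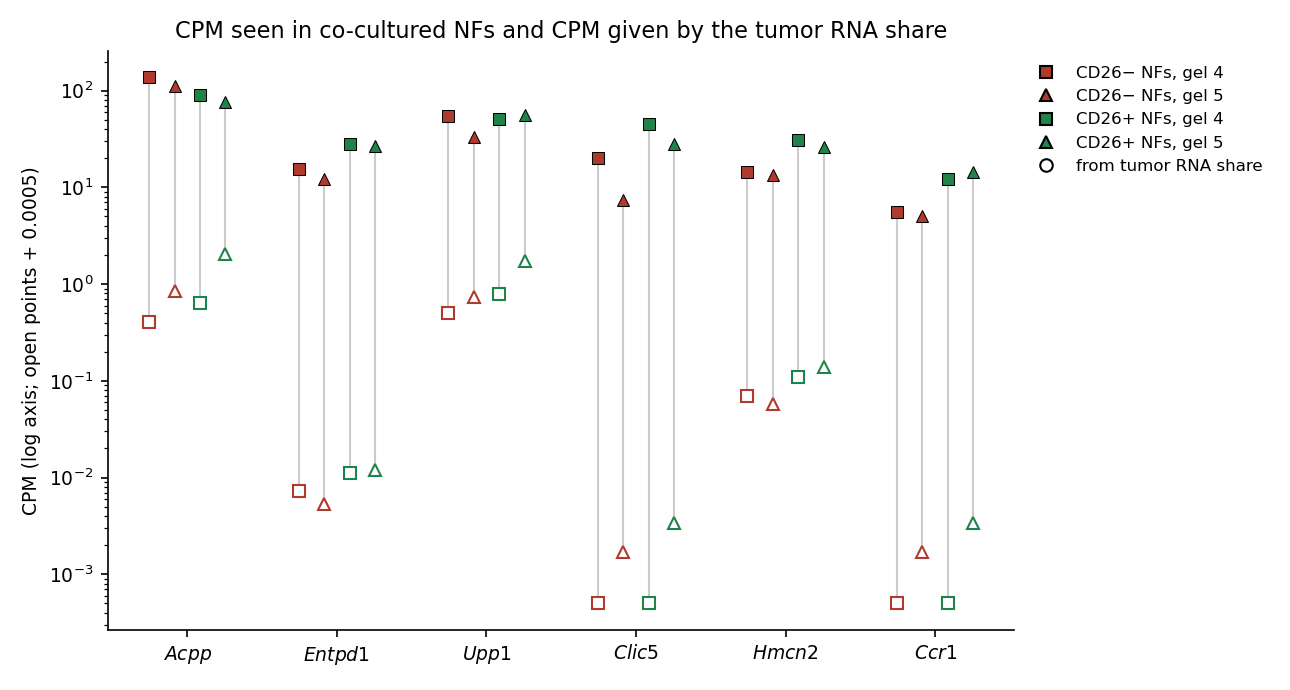
Filled points are the CPM seen in the 4 co-cultured NF libraries and open points the CPM that the tumor RNA share of that library would supply, joined by a line for each library, on a log axis with 0.0005 added to the open points. The gap is narrowest for Upp1 and Acpp in CD26+ NFs of gel 5, where 1.75 and 2.02 CPM stand under 55.9 and 76.6 CPM seen.

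Markers of other cell types were read in the same comparison, in which 25.9% of all genes tested were higher and 22.9% lower. Of 12 macrophage markers, 7 could be tested in NFs, of which 4 were higher and 1 lower, and their sum went from 14.2 and 17.8 CPM alone to 38.2 to 79.5 CPM. Those higher were Cd68 (3.48 and 6.53 CPM alone, 19.6 to 53.5 CPM in co-culture), Csf1r (1.86 and 2.81 CPM, then 7.42 to 13.5 CPM), Cd14 and Itgam, with log2 differences of 2.84, 2.12, 1.82 and 3.97. The macrophage marker that was lower was Lyz2, at 6.02 and 4.07 CPM alone and 0.173 to 0.964 CPM in co-culture (log2 difference −3.47). The leukocyte-defining Ptprc (CD45) and the macrophage marker Adgre1 did not exceed 0.0621 CPM in any NF library, and Tyrobp was at 0 in all 10 libraries. Of 8 endothelial markers, 5 were tested, with 2 higher and 1 lower, and their sum went from 5.03 and 9.90 CPM to 8.63 to 27.3 CPM, with Pecam1 at 5.93 to 9.76 CPM and Cdh5 at 1.04 to 4.69 CPM in co-cultured NFs. The endothelial marker that was lower was Tek, at 3.23 and 4.84 CPM alone and 0.0575 to 1.98 CPM in co-culture (log2 difference −2.48). Of 5 pericyte markers, 2 were higher and none lower, and their sum went from 60.5 and 88.6 CPM to 194 to 460 CPM, with Cspg4 (NG2) going from 2.48 and 5.97 to 59.7 to 175 CPM (log2 difference 4.62, adjusted p = 7.01e-05) and Notch3 from 28.3 and 68.9 to 125 to 271 CPM (1.90, adjusted p = 0.00499), while the defining marker Rgs5 stood at 9.25 and 6.11 CPM alone and at 1.88 to 6.22 CPM in co-culture. The 12 fibroblast markers summed to 77181 and 82730 CPM alone and 27490 to 51646 CPM in co-culture. By the study's methods, NFs had been sorted before culture as negative for EpCAM, CD49f, CD45 and CD31, the last being the protein of Pecam1. The part of macrophages, pericytes or remaining endothelial cells in the levels of the 6 genes was not tested.

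Within the co-cultures, CD26+ and CD26− NFs shared a gel, and whether the subsets differed in level could be asked of 4 genes that this difference had not selected; the rises themselves were not tested against each other. Of 16231 genes tested, 975 differed between subsets, which is 6.01% (edgeR's quasi-likelihood test with Benjamini-Hochberg adjustment at 0.05, as for every adjusted p-value given here unless DESeq2 is named), or 2407 of 14410 when the gel entered the fit as a block. Acpp, Clic5 and Hmcn2 were past the threshold and Upp1 was not.

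Acpp was the gene with less RNA in the CD26+ subset, with group levels of 83.0 ± 9.12 and 125 ± 18.8 CPM (SD, n = 2 each). The log2 difference was −0.76 (SE 0.171, adjusted p = 0.0177), and CD26+ NFs stood at 0.647 times the CD26− level in gel 4 and 0.686 times in gel 5. Hmcn2 was higher in CD26+ NFs, at 28.5 ± 3.11 against 13.9 ± 0.759 CPM (SD, n = 2 each), with a log2 difference of 0.86 (SE 0.196, adjusted p = 0.0196). Its ratios were 2.12 in gel 4 and 1.96 in gel 5, and it had been the higher one in CD26+ NFs alone as well (2.25 against 0.745 CPM). For both genes the libraries of the subsets did not overlap. CD26+ libraries held more tumor RNA in both gels, 6 of 12 fibroblast markers were lower in them and none higher, and 2 of 11 epithelial and 2 of 5 endothelial markers tested were higher. Of 5 pericyte markers, Cspg4 (log2 difference −1.46, adjusted p = 0.000518) and Notch3 (−0.96, adjusted p = 0.0136) were lower and Kcnj8 (2.54, adjusted p = 0.0208) higher in CD26+ NFs, and of 8 macrophage markers tested Cx3cr1 was higher (3.55, adjusted p = 0.0114) and none lower. The part of these in the subset differences was not tested.

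Clic5 was higher in CD26+ NFs, at 36.7 ± 12.4 against 13.9 ± 9.19 CPM (SD, n = 2 each), with a log2 difference of 1.25 (SE 0.343, adjusted p = 0.0492). The ratio was 2.23 (1.96 to 2.55) in gel 4 and 3.80 (3.11 to 4.68) in gel 5. Upp1 had a log2 difference of 0.11 (95% interval −0.34 to 0.55, adjusted p = 0.830). Its ratio was 0.925 (0.840 to 1.02) in gel 4, where the counting interval includes 1, and 1.66 (1.49 to 1.86) in gel 5. Entpd1 (ratios 1.80 and 2.18) and Ccr1 (2.202 and 2.82) were higher in CD26+ NFs in both gels, which is a description since a subset difference had brought them to notice.

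These calls rest on 2 libraries a side. Leaving out any 1 of the 4 co-cultured NF libraries, with the lone library assumed to vary like the others, left the log2 difference of Acpp between −0.87 and −0.65 (adjusted p = 0.102 to 0.208) and that of Hmcn2 between 0.77 and 0.92 (0.141 to 0.228), none past the threshold. Without CD26+ NFs of gel 4 no gene of all those tested passed edgeR's test (3287 had an unadjusted p under 0.05) and without CD26+ NFs of gel 5 only 2 did, so the loss of a call there says little of a single gene. Clic5 moved more, from 2.10 without CD26− NFs of gel 4, where it stayed past the threshold, to 0.72 without CD26− NFs of gel 5 (adjusted p = 0.437), with 0.89 (0.431) and 1.51 (0.250) without CD26+ NFs of gels 4 and 5. DESeq2 did not call Clic5 (adjusted p = 0.504), and without the filter on low counts neither Clic5 (0.136) nor Hmcn2 (0.0554) passed.

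**Figure D3:**
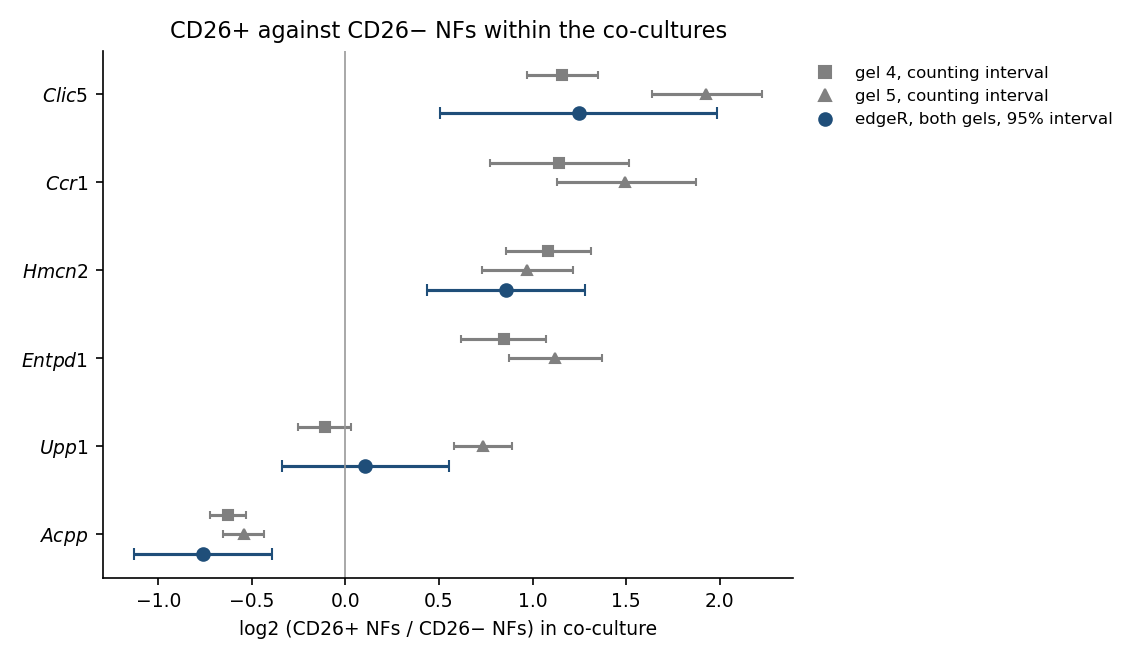
The log2 ratio of CD26+ to CD26− NFs within co-culture is plotted for each gene from the CPM of gel 4 and of gel 5 (grey, with 95% counting intervals) and from the edgeR fit over both gels (blue, with its 95% interval), which scales libraries by TMM rather than by their totals. Entpd1 and Ccr1 have no blue point because a subset difference had brought them to notice, so their fitted values are not given as a test. Acpp is the gene to the left of 0 in both gels, and Upp1 lies at −0.11 in gel 4 and 0.74 in gel 5.

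In tumor cells the same genes took different courses beside NFs. Libraries with and without NFs were compared with the line as a term, and 22.3% of 13197 genes passed. Acpp was at 2.12 CPM in line 13-MCB-17 alone and 20.4 CPM with NFs, and at 11.8 CPM in line 10-SJK-221 alone and 40.2 CPM with NFs. It was thus higher in both lines, 9.61-fold (6.89 to 13.7) and 3.42-fold (2.90 to 4.04), with a log2 difference of 2.35 (SE 0.296, adjusted p = 0.00115). Over 12 fibroblast markers the median ratio of tumor to NF libraries was 0.294% in gel 4 and 0.191% in gel 5, which would supply 0.334 and 0.179 CPM of Acpp; with the marker of the highest ratio, Col5a1 at 29.8% and 12.8%, which tumor cells alone also held at 380 and 137 CPM, it would supply 167% and 30.0% of the Acpp seen in these tumor libraries.

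Upp1 fell in tumor cells while it rose in NFs. It was at 67.5 CPM in line 13-MCB-17 alone against 25.5 CPM with NFs, and at 53.4 against 34.8 CPM in line 10-SJK-221, which is 0.377 times (0.338 to 0.421) and 0.651 times (0.586 to 0.723). The log2 difference was −1.04 (SE 0.179, adjusted p = 0.00474). Both lines moved the same way, and the tumor library held less Upp1 than the NF library of its gel in 3 of the 4 pairings. In the same comparison, where 22.3% of all genes passed in either direction, 6 of 12 epithelial markers were lower and 0 higher. Of 9 fibroblast markers tested, 7 were higher and 0 lower. The part of these in the fall of Upp1 was not tested.

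Ccr1 fell in tumor cells as well, from 19 counts to 0 in line 13-MCB-17, at least 6.08-fold lower, and from 21 counts to 1 in line 10-SJK-221, a ratio of 0.0427 (0.00103 to 0.265). Its level alone was low, at 1.03 and 1.34 CPM, and Ccr1 passed the filter on low counts only through these libraries. The fall is therefore a description, and its adjusted p of 0.00441 is not taken as support. In the same comparison the 12 macrophage markers summed to 188 to 357 CPM alone and to 88.4 to 112 CPM with NFs. Of the 6 that could be tested, Cd68 (log2 difference −1.69, adjusted p = 0.000147) and Mrc1 (−2.23, adjusted p = 0.000585) were lower and Laptm5 (3.06, adjusted p = 0.00167) and Csf1r (1.61, adjusted p = 0.0169) higher, while Ptprc and Adgre1 did not exceed 0.127 CPM in any tumor library. The part of macrophages in the fall of Ccr1 was not tested. Hmcn2 stood at 2.50 and 1.72 CPM alone against 3.51 and 2.74 CPM with NFs (log2 difference 0.54, adjusted p = 0.254). Clic5 and Entpd1 had too few reads in tumor cells to be tested, with at most 1 and 6 counts in a library. Without the line as a term no gene of the 13197 passed (2207 had an unadjusted p under 0.05), and the adjusted p was 0.309 for Acpp, 0.149 for Upp1 and 0.113 for Ccr1. DESeq2 with the line as a term and the same filter called 1568 genes, among them all 3. For Ccr1 that call shares the limit given above.

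Each of the 6 genes has neighbors in a family or pathway. These lists were tested in the 6 NF libraries, where 25.9% of 15013 genes were higher in co-culture and 22.9% lower, with a median log2 difference of 0.02 over all genes. Counts below leave out the 6 genes themselves. The comparison sets 2 co-culture gels against 1 gel alone, so a trait of gel 1 and the absence of tumor cells cannot be told apart.

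Of 9 further enzymes that act on extracellular nucleotides, 8 were tested, of which 3 were higher and 2 lower, with a median log2 difference of 0.15. Nt5e (CD73), the main enzyme that makes adenosine from AMP and so works after Entpd1, was at 18.7 and 17.9 CPM alone and at 136 to 156 CPM in co-culture (log2 difference 3.07, SE 0.144, adjusted p = 5.24e-07). Nt5e was higher still in tumor cells, at 179 and 83.7 CPM alone and 727 and 575 CPM with NFs (log2 difference 2.37, adjusted p = 0.000133, or 0.127 without the line as a term), and their RNA would supply 8.87% to 18.6% of the Nt5e seen in co-cultured NFs. Alpl, the tissue-nonspecific alkaline phosphatase, which also removes phosphate from AMP, went the other way, from 234 and 84.6 CPM to 1.48 to 3.39 CPM (log2 difference −6.04, adjusted p = 7.39e-08). Enpp3, an ectonucleotide pyrophosphatase, fell from 26.9 and 33.7 CPM to 5.33 to 9.50 CPM (log2 difference −2.02, adjusted p = 8.52e-05).

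The relatives of Entpd1 were low or level. Entpd2 was at 3.10 and 3.58 CPM alone and 3.61 to 4.30 CPM in co-culture. Entpd3 went from 0.0621 and 0.281 CPM to 0.909 to 2.38 CPM (log2 difference 3.16, adjusted p = 0.00270), but tumor cells of these gels held 28.2 and 39.5 CPM of it, and their share of RNA would supply 36.9% to 128% of the Entpd3 seen in an NF library. Enpp1 rose by 0.67 on the log2 scale (adjusted p = 0.0318) and, like Acpp, was lower in CD26+ than in CD26− co-cultured NFs, at 53.4 and 68.2 against 139 and 186 CPM (log2 difference −1.59, adjusted p = 0.000591).

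Among 22 receptors for purines and nucleoside carriers, 13 were tested, 9 were higher and 1 lower, with a median log2 difference of 0.99. P2ry2, a receptor for ATP and UTP, went from 6.58 and 9.33 CPM to 45.1 to 61.6 CPM (log2 difference 2.88, adjusted p = 9.56e-06). P2ry6, a receptor for UDP, went from 0.497 and 2.32 CPM to 2.70 to 16.0 CPM (log2 difference 2.53, adjusted p = 0.000492) and was higher in CD26+ than CD26− NFs (log2 difference 1.81, adjusted p = 0.00641). P2ry4 was listed at 0 alone and did not exceed 0.970 CPM in co-culture, although it passed the test (adjusted p = 0.00631). P2rx6 fell from 5.09 and 14.5 CPM to 0.288 to 1.54 CPM (log2 difference −3.49, adjusted p = 1.59e-05). Carried-over tumor RNA would supply at most 0.967% of the P2ry2 and 10.4% of the P2ry6 seen in an NF library.

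Of 13 other genes of pyrimidine salvage, breakdown and synthesis, 10 were tested, with 2 higher and 5 lower and a median log2 difference of −0.37. Upp2, the other uridine phosphorylase, was at 2.55 and 2.04 CPM alone and 1.27 to 2.62 CPM in co-culture. Cda (cytidine deaminase) rose from 3.54 and 5.05 CPM to 5.76 to 15.7 CPM (adjusted p = 0.0154) and Uck1 (uridine-cytidine kinase) from 13.1 and 17.4 CPM to 20.4 to 32.6 CPM (adjusted p = 0.00109). Dpyd, which begins the breakdown of uracil, fell from 2.79 and 5.97 CPM to 0.0606 to 0.707 CPM (adjusted p = 0.000178), and Tk1 (thymidine kinase, expressed in cycling cells) from 10.6 and 5.05 CPM to 1.80 to 4.10 CPM (adjusted p = 0.0192). Carried-over tumor RNA would supply 31.5% to 63.8% of the Tk1 seen in a co-cultured NF library.

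Of 5 other acid phosphatases, 4 were tested. Acp6 was higher, at 18.9 to 31.4 CPM against 7.27 and 8.70 CPM alone (log2 difference 1.71, adjusted p = 3.75e-05), and the lysosomal Acp2 was lower, at 35.1 to 53.7 against 71.2 and 72.4 CPM (log2 difference −0.68, adjusted p = 0.00660). Acp1 (17.7 to 20.4 CPM in co-culture, 21.7 and 24.2 CPM alone) and Acp5 (4.32 to 6.30 CPM, and 4.53 and 2.67 CPM alone) did not pass.

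In the family of Clic5 the widely expressed Clic1 and Clic4 were high throughout. Clic1 was at 143 and 195 CPM alone and 236 to 332 CPM in co-culture (log2 difference 0.84, adjusted p = 0.00536), and Clic4 at 237 and 200 CPM alone and 231 to 271 CPM in co-culture, which did not pass. Of 6 genes that link membranes to actin through ezrin, radixin and moesin, 3 were higher and none lower, with a median log2 difference of 0.95. Ezr (ezrin) rose from 12.4 and 32.4 CPM to 44.4 to 130 CPM (log2 difference 2.06, adjusted p = 1.05e-05), and Msn (moesin) from 344 and 330 CPM to 871 to 1200 CPM (log2 difference 1.65, adjusted p = 2.87e-05). Podxl (podocalyxin), a membrane partner of ezrin, was at 0.124 and 0 CPM alone and 2.302 to 11.2 CPM in co-culture (adjusted p = 7.93e-05). Ezr and Podxl were, like Clic5, higher in CD26+ than in CD26− co-cultured NFs (log2 differences 1.05 and 1.72, adjusted p = 0.00372 and 0.00529), and CD26+ libraries also had the higher share of tumor RNA, which would supply 10.04% to 24.6% of the Ezr and 1.27% to 24.8% of the Podxl seen in an NF library.

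Of 7 other hemicentins and fibulins, all tested, none was higher and 5 were lower, with a median log2 difference of −1.51. Hmcn1, its closest relative, fell from 147 and 31.1 CPM to 11.95 to 47.1 CPM (log2 difference −1.51, adjusted p = 0.000407) and was lower in CD26+ than CD26− co-cultured NFs (log2 difference −1.67, adjusted p = 0.000842), whereas Hmcn2 was higher in them. Efemp1 (fibulin-3) fell from 514 and 635 CPM to 0.727 to 10.5 CPM (log2 difference −7.39, adjusted p = 4.39e-06), Fbln1 from 930 and 898 CPM to 158 to 235 CPM (log2 difference −2.22, adjusted p = 4.05e-06) and Efemp2 (fibulin-4) from 935 and 861 CPM to 199 to 308 CPM (log2 difference −1.74, adjusted p = 1.75e-05).

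Of 23 other chemokine receptors, 17 had too few reads in NFs to be tested, 2 were higher and 1 was lower. Ackr3, a scavenging receptor for CXCL12, rose from 21.4 and 40.1 CPM to 32.8 to 98.1 CPM (log2 difference 1.02, adjusted p = 0.000767) and was higher in CD26+ co-cultured NFs (log2 difference 1.23, adjusted p = 0.00112), and tumor RNA would supply 4.95% to 8.56% of the Ackr3 seen in an NF library. Ccrl2 reached 2.05 to 3.15 CPM (adjusted p = 0.0374), Ackr4 fell to 0.575 to 2.83 CPM (adjusted p = 0.0334), and Cxcr4 was at 1.09 to 4.10 CPM against 1.06 and 0.351 CPM alone. Ccr1l1, the gene next of kin to Ccr1, was at 0 in all 6 NF libraries. Among 5 genes for ligands of CCR1, Ccl7 fell from 211 and 212 CPM to 62.8 to 75.0 CPM (adjusted p = 9.09e-06) and Ccl9 from 43.5 and 34.7 CPM to 0.182 to 1.41 CPM (adjusted p = 4.80e-06), while Ccl3 was at 0 alone and at 0.121 and 0.115 CPM in CD26− and 2.25 and 2.47 CPM in CD26+ co-cultured NFs (adjusted p = 0.00159). Carried-over tumor RNA would supply 27.3% to 123% of the Ccl9 seen in a co-cultured NF library.

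Some of these calls did not hold without 1 gel or library. Without gel 5 the co-culture calls of Enpp1 (adjusted p = 0.163), Cda (0.109), Clic1 (0.0577) and Ackr4 (0.132) ended, without gel 4 that of Tk1 (0.0931), and without either gel that of Ccrl2 (0.118 and 0.120). Between subsets, P2ry6, Ezr and Podxl were not past the threshold without CD26− NFs of gel 5, with log2 differences of 1.66, 0.87 and 1.55 (adjusted p = 0.0994, 0.136 and 0.123). Without either CD26+ library, where at most 2 genes passed in all, the log2 differences of Enpp1, P2ry6, Ezr, Podxl, Hmcn1 and Ackr3 kept their direction (adjusted p = 0.136 to 0.185).

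**Figure D4:**
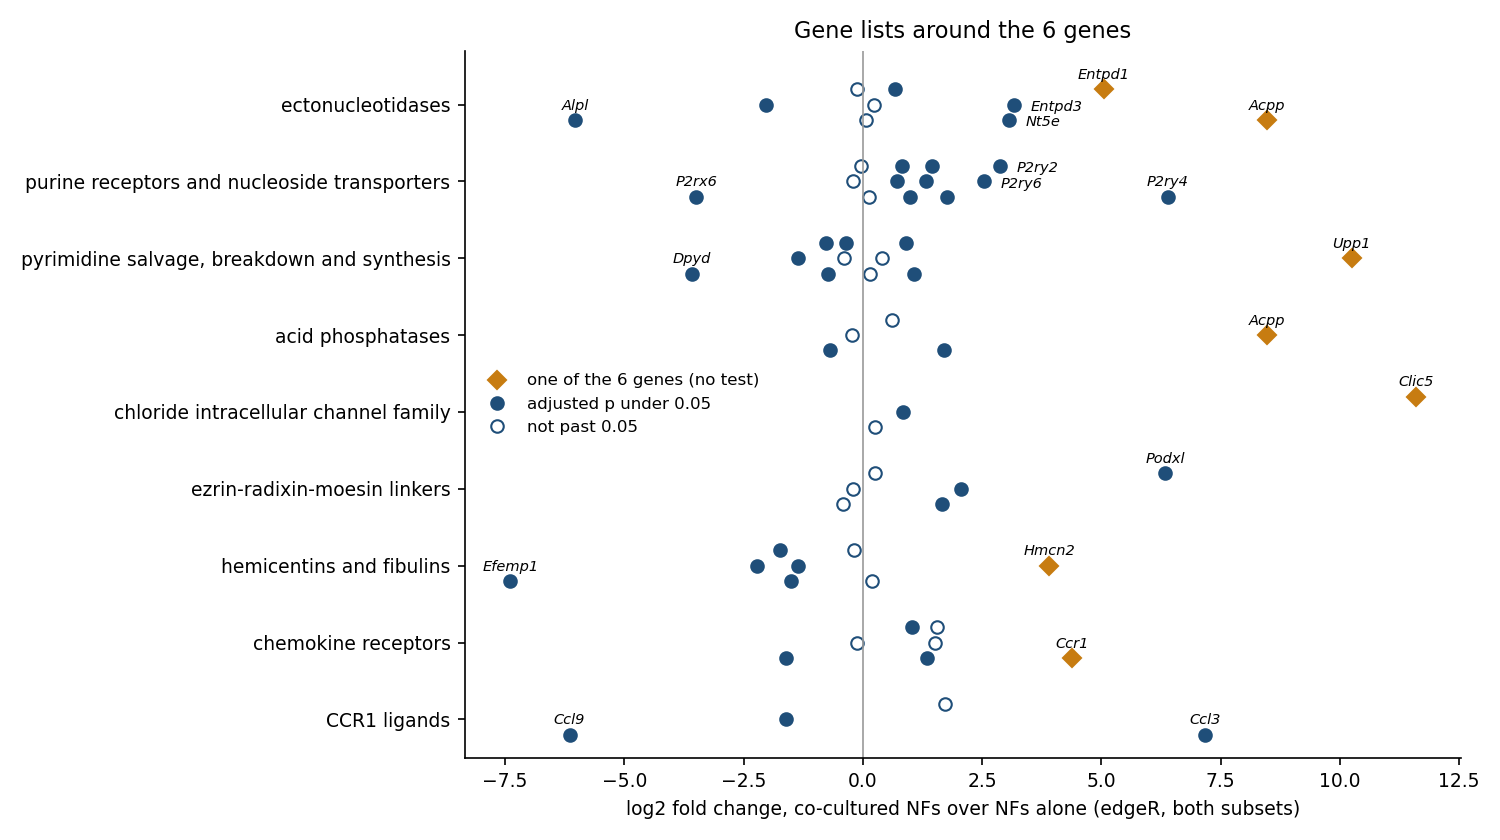
Each point is a gene tested in NFs, placed by its log2 difference between co-cultured NFs and NFs alone (edgeR, both subsets) in the row of its list. Diamonds are the 6 genes, which were chosen on this difference, filled circles passed the test and open circles did not. Efemp1, at −7.39, is the leftmost gene among hemicentins and fibulins, and the other pyrimidine genes have a median of −0.37.

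Over the 10 libraries, 4 of the 6 genes had nearly one pattern. Pearson's r of log2(CPM + 1), given as a description with no test since all genes share the same libraries and the same few group steps, lay between 0.90 and 0.98 for every pair among Clic5, Hmcn2, Entpd1 and Ccr1. Acpp, which tumor cells also express, had r between 0.68 and 0.82 with these 4, and Upp1, at its highest in tumor cells, between 0.38 and 0.54. Acpp and Upp1 had r = 0.74 with each other.

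The genes most like each member were named from 13205 genes with a mean of at least 1 CPM in co-cultured NFs. For Clic5 they were Slc35g2 (r = 0.995), Abca4, Chrna1 (a subunit of the muscle acetylcholine receptor), Gm43154 and Map3k21, and for Entpd1 Slc35g2 (r = 0.991), Map3k21, Adgrb1, Ache (acetylcholinesterase) and Htr2b (a serotonin receptor). For Hmcn2 they were Slc15a4 (r = 0.986), B230303O12Rik, Mmp12 (a metalloproteinase that degrades elastin), H2-Q6 and Chrna1. Chrna1 had 0 counts in NFs alone, 10.1 to 33.0 CPM in co-cultured NFs and at most 0.342 CPM in tumor cells, and Mmp12 went from at most 0.373 CPM to 33.7 to 158 CPM. For Ccr1 they included Btbd3 (r = 0.977), Rps6kc1, Abca4 and Serpinb2. The genes most like Acpp were Vwa1 (r = 0.975), Mmp25, Map2k6, Atp11b and Tmem221, and those most like Upp1 were Rab3ip (r = 0.992), Ptgs1 (cyclooxygenase 1), Prkcd, Hk1 (hexokinase) and Trpm4, which tumor cells also held at 42.9 CPM or more in their highest library.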

How the data were processed

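Total RNA of sorted mouse cells was made into stranded mRNA libraries (10 in all). The authors deposited 1 table of raw counts for each gene, with no normalization. Per the labels' processing notes, reads were aligned with HISAT2 2.2.1 to GRCm38. Which program counted the reads, with which annotation and whether by strand, is not given in the sources used here. A row without a gene ID held 0 counts and was left out. Gene positions and exon lengths were from GENCODE M21 (GRCm38), and promoters from RefSeq.

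CPM used library totals. Differences were tested with edgeR 4.0.16 (R 4.3.3; TMM, filterByExpr, quasi-likelihood F test, Benjamini-Hochberg adjustment over all genes tested, threshold 0.05). NF comparisons were fitted to the 6 NF libraries, with terms for culture and subset or with 4 groups of subset by culture, and tumor comparisons the 4 tumor libraries with the line as a term. Alternatives were DESeq2, RLE scaling, no filter beyond 1 count, the gel as a replicate block, no line term and leaving out libraries. The study's methods state DESeq2. The labels give both NF subsets of a co-culture the same gel number, so the gel pairs them, and deviations from the group means of same-gel libraries had r = 0.24 over 13299 genes. Nothing in the labels says that NFs of different gels came from separate isolations, so p-values may measure technical spread. Ratios of single libraries have 95% Clopper-Pearson intervals on the split of their counts. On simulated counts with 200 genes changed by 2 on the log2 scale, 99.5% (co-culture against alone, 14554 genes), 100% (subsets, 15350 genes) and 100% (tumor cells, 12982 genes) were recovered, and 7.87%, 6.54% and 3.85% of the genes called were false. The changed genes were drawn from those of higher mean CPM, and the fitted spread of each gene was taken as true. In the data far more genes were called, 7325 between co-culture and NFs alone. Subset differences were smaller than simulated (−0.76 for Acpp, 0.86 for Hmcn2 and 1.25 for Clic5). The rates therefore do not give the power to find them.

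The members, lists, motifs and tests were chosen with earlier results of these data known. The rule for named genes took the 6 members, up to 4 genes per list and comparison past the threshold with the highest absolute log2 difference, relatives of a member at 1 CPM or more, and per member the 5 genes with the highest r. A further conditional allele of the tumor lines and a gene that this rule took are not reported here.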

Additional observations from a re-analysis of the deposited data

Results flagged for a closer look

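Upp1 and Ccr1 went opposite ways in the 2 kinds of cells of the same gels: every co-cultured NF library was above NFs of its subset alone (4 of 4), and both co-cultured tumor libraries were below tumor cells of their line alone (2 of 2). In tumor cells the log2 difference between co-culture and culture alone was −1.04 for Upp1 and −5.09 for Ccr1, the latter a fitted value that depends on the handling of counts at or near 0. The difference between NFs and tumor cells was not tested. No group had more than 2 libraries, so no library could be checked for standing apart within its group.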

How the results depend on the processing

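In the comparison of co-cultured NFs with NFs alone, the count of 7325 genes called stayed within 1.5 times with RLE scaling, no filter, DESeq2 or without a gel (5132 to 5988). For CD26− NFs leaving out a library moved 4996 calls to 2950 to 3373, and for CD26+ NFs 5556 calls to 3222 to 4881, fewest without gel 4 in each. Between subsets within co-culture 975 calls became 603 without the filter on low counts, 2407 with the gel as a replicate block, and 0 to 451 without 1 library (0 without CD26+ NFs of gel 4, where 3287 genes had an unadjusted p under 0.05, 2 without CD26+ NFs of gel 5, 244 without CD26− NFs of gel 5). The block changed no call of the 4 genes tested. The log2 difference of Upp1 between subsets ran from −0.17 to 0.45 over the libraries left out and was below 0 without either NF library of gel 5 (−0.17 and −0.01). In tumor cells 2942 calls became 1568 with DESeq2 and 0 without the line term; the cause was not tested. The share of tumor RNA moved by less than its spread between NF libraries when the mean of the ratios was used (2.77% to 6.04%) or keratins Krt8 and Krt18 were left out (1.98% to 4.96%). Among the other listed genes no direction reversed. Of their values under alternatives, 20 in NFs were no longer past the threshold and 307 stayed the same. Between subsets 90 were no longer past it and 102 stayed the same, and in tumor cells 45 and 99.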
